A study of Mus musculus with 6 samples.

Results

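The miR-34 and miR-449 microRNAs (miRNAs, short RNAs that silence messenger RNAs) come from separate loci and share the seed of their 5p arms. The 6 members here, mmu-miR-34a-5p, mmu-miR-34b-5p, mmu-miR-34b-3p, mmu-miR-34c-5p, mmu-miR-34c-3p and mmu-miR-449a-5p (the prefix for mouse is left out from here on), were taken by mature name from the 1542 mature sequences counted. Kidneys of 17-week-old female mice were sequenced, with 3 libraries from MRL/lpr mice (MRL/MpJ-Fas<lpr>/J) and 3 from C57BL/6 wild-type mice. The MRL/lpr strain combines the MRL background with the lpr mutation in Fas, a death receptor gene, and spontaneously develops a disease resembling lupus, nephritis included. Strain background, the lpr mutation and disease therefore cannot be told apart in this comparison. Nothing in the labels states that the libraries came from different animals, and p-values then cover only the spread among these libraries, which may be technical.

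miR-34a is a direct transcriptional target of the tumour suppressor p53, and it represses cell-cycle and survival genes such as Cdk6, Ccnd1, Met, Bcl2 and Sirt1. miR-34b and miR-34c are made from one primary transcript, which p53 can also induce, and in adult mice they are best known from testis and from multiciliated cells of airway, oviduct and brain ventricles. The miR-449 cluster lies in an intron of Cdc20b, a gene of the multiciliated cell programme, and with miR-34b/c it supports the formation of motile cilia by repressing the ciliary-assembly inhibitor Cp110. Adult mammalian kidney tubules carry single primary cilia and are not known for multiciliated cells.

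Of the 6 members, 5 had a mature sequence in the RefSeq table (GRCm38.p6). miR-34c-5p had none there, so its seed was not checked and it is missing from the seed counts below. The 5 sequences are printed because they show what the family shares and where its members part. The seed, bases 2 to 8 from the 5′ end, by which a miRNA finds its targets, is in capitals.
miR-34a-5p: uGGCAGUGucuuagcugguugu
miR-34b-5p: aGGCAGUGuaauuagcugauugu
miR-449a-5p: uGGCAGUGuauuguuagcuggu
miR-34b-3p: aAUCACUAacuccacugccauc
miR-34c-3p: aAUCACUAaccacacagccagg
The 5p arms of miR-34a, miR-34b and miR-449a carried the same seed, GGCAGUG. Of 1679 mature names in that table, 4 had it, the fourth being miR-449c-5p. The 3p arms of miR-34b and miR-34c carried another seed, AUCACUA, which only these 2 names of the table had. miR-34a-5p and miR-449a-5p were identical over their first 9 bases and 6 edits apart over their whole length. miR-34a-5p and miR-34b-5p were 4 edits apart, and the 3p arms of miR-34b and miR-34c were 5 edits apart. The sources used here do not say how reads matching several entries were assigned, which leaves the counts of scarce members beside the abundant miR-34a-5p uncertain.

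The hairpins lie at 3 loci, with the same positions in RefSeq and in GENCODE M21 (GRCm38). Mir34a occupies 150068454 to 150068555 on the plus strand of chromosome 4 and overlaps an exon of Gm37795, a transcript of type TEC (to be experimentally checked) on the same strand. Mir34c (51103034 to 51103110) and Mir34b (51103562 to 51103645) lie on the minus strand of chromosome 9, 451 bases apart, in an intron of Btg4, which is transcribed from the other strand. Mir449c (113035983 to 113036091) and Mir449a (113037534 to 113037624) lie on the plus strand of chromosome 13, 1442 bases apart, in introns of Cdc20b, transcribed in the same direction.

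The libraries held 5259528 to 6460200 counts in MRL/lpr and 5430246 to 6773829 in C57BL/6. Levels are in CPM, counts scaled by TMM to a common library total, and fold changes are MRL/lpr over C57BL/6. Of 7 kidney epithelial miRNAs listed, edgeR (test described below) called 2 higher in MRL/lpr, miR-204-5p (2.88-fold, adjusted p = 0.00141) and miR-802-5p (3.35-fold, adjusted p = 0.00793), and 0 lower, where 4.21% of all tested miRNAs were called higher and 2.0% lower. The list did not move as one, with a median log2 fold change of 0.11 (-0.093 without C57BL/6 replicate 2). miR-10a-5p (-0.38) and miR-200b-3p (-0.19) stood below 0, and miR-192-5p, miR-194-5p and miR-30a-5p at 0.049 to 0.16. Of 7 leukocyte and myeloid miRNAs 1 was called higher, miR-155-5p (2.47-fold, adjusted p = 0.0331), and 0 lower. By log2 fold change 4 of the 7 stood above 0, while miR-146a-5p (-0.55), miR-223-3p (-0.42) and miR-511-3p (-0.89) stood below 0. These negative values rest on 1 library, C57BL/6 replicate 2. For each of these miRNAs it was the highest library, while C57BL/6 replicates 1 and 3 lay below every MRL/lpr library. miR-223-3p, for instance, stood at 1019 CPM in C57BL/6 replicate 2 and at 221 and 235 CPM in replicates 1 and 3. In MRL/lpr it stood at 331 to 402 CPM. Of 4 miRNAs of other tissues 1 was called lower, the neuroendocrine miR-375-3p (0.437 times its C57BL/6 level, adjusted p = 0.00793), and the liver miRNA miR-122-5p averaged 4.77 ± 3.44 CPM in MRL/lpr and 7.65 ± 3.38 CPM in C57BL/6 (SD, n = 3 each). The calls of miR-802-5p and miR-375-3p were lost without MRL/lpr replicate 3 (adjusted p = 0.0643 and 0.0654). That of miR-155-5p was lost without any one of C57BL/6 replicates 1 and 3 and MRL/lpr replicates 1 and 3 (0.0580 to 0.156). It was also lost with dispersion not robust (0.0528) and with the replicate number as a block (0.0842). In bulk kidney RNA, fewer cells of a type and less RNA per cell cannot be told apart. C57BL/6 replicate 2 stood apart. Among the C57BL/6 libraries it was highest in all 7 leukocyte and myeloid miRNAs and lowest in 6 of the 7 kidney epithelial ones. The leukocyte and myeloid sum, most of it miR-146a-5p, was 9078 to 10666 CPM in MRL/lpr. In C57BL/6 it was 28462 CPM in replicate 2, against 6033 and 5805 CPM in replicates 1 and 3. Without this library 5 of the 7 were called higher in MRL/lpr, among them miR-142a-3p (log2 fold change 2.21, edgeR adjusted p = 0.00193). In that fit 8.94% of all tested miRNAs were called higher. The median log2 fold change of the 7 was then 0.93, against 0.24 with all 6 libraries. This library was singled out by its high values of these miRNAs, so leaving it out raises their differences by construction. The 5 calls are therefore no support for a difference. In all 6 libraries miR-142a-3p was 2.73-fold higher without passing in edgeR (adjusted p = 0.0943). With the same libraries it passed in edgeR with no low-count filter (adjusted p = 7.92e-05) and in DESeq2 (adjusted p = 0.00510). DESeq2 called 3 of the 7, all higher, beside 8.39% of its tested miRNAs in either direction. Values without C57BL/6 replicate 2 are given below where a call or a sign changed or a value moved by more than 1.5 times.

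miR-34a-5p made up nearly all of the family in kidney. It was the 21st most abundant of the 451 miRNAs tested and took 99.2% ± 0.166 of the members' counts in MRL/lpr and 99.5% ± 0.0920 in C57BL/6 (SD, n = 3 each). All 6 members together took 1.64% ± 0.384 of the counts of a library in MRL/lpr and 1.67% ± 0.120 in C57BL/6. In MRL/lpr the means ran from miR-34a-5p through miR-449a-5p, miR-34b-3p, miR-34c-3p and miR-34c-5p to miR-34b-5p. In C57BL/6 the order was the same except that miR-34b-3p stood above miR-449a-5p. miR-34a-5p averaged 272-fold more than miR-449a-5p in MRL/lpr and 454-fold more than miR-34b-3p in C57BL/6. Neighbours in these orders whose ranges overlapped were miR-34c-5p and miR-34b-5p in MRL/lpr and miR-34b-3p and miR-449a-5p in C57BL/6. Adapter ligation favours some miRNA ends, so levels of different miRNAs are less comparable than levels of one miRNA between libraries.

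**Figure D1:**
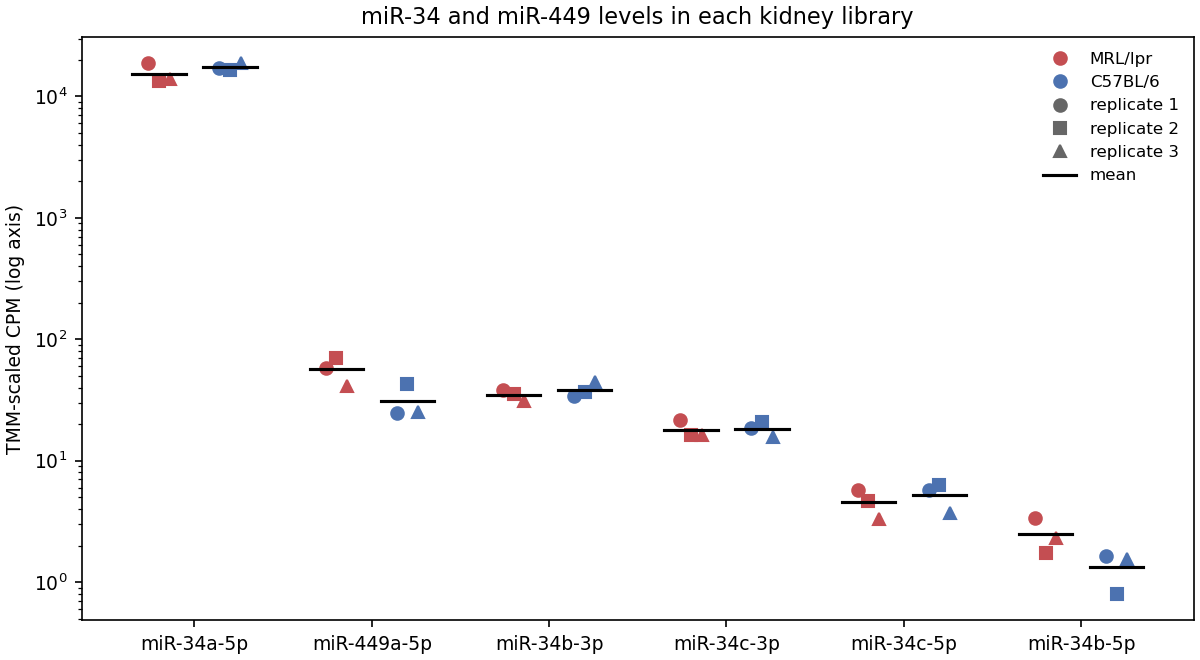
Level of each member in each library, in TMM-scaled CPM on a log axis, with MRL/lpr in red left of C57BL/6 in blue; marker shapes give the replicate number and black lines the mean of 3 libraries. miR-34a-5p lies between 13352 and 18764 CPM in all libraries, and every other member lies at or below 70.5 CPM.

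None of the 6 members passed the test between strains (quasi-likelihood test of edgeR, p adjusted by Benjamini-Hochberg under 0.05), where 28 of 451 miRNAs, 6.21%, did. At an unadjusted p under 0.05 there was 1 of 6, miR-449a-5p, which was higher in MRL/lpr, against 20.8% of all tested in either direction and 11.1% higher. DESeq2 (8.39% of its tested miRNAs called) and limma-voom (4.66% called) also called 0 of the 6. Log2 fold changes were above 0 for 2 members and below 0 for 4, with a median of -0.079, beside -0.027 over all tested miRNAs. With library-size scaling the median of all tested miRNAs was 0.12 and miR-34b-3p and miR-34c-3p stood at 0.0080 and 0.14, so the signs of these small values depend on the scaling. miR-34a-5p then stood at -0.026, against -0.19 with TMM.

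**Figure D2:**
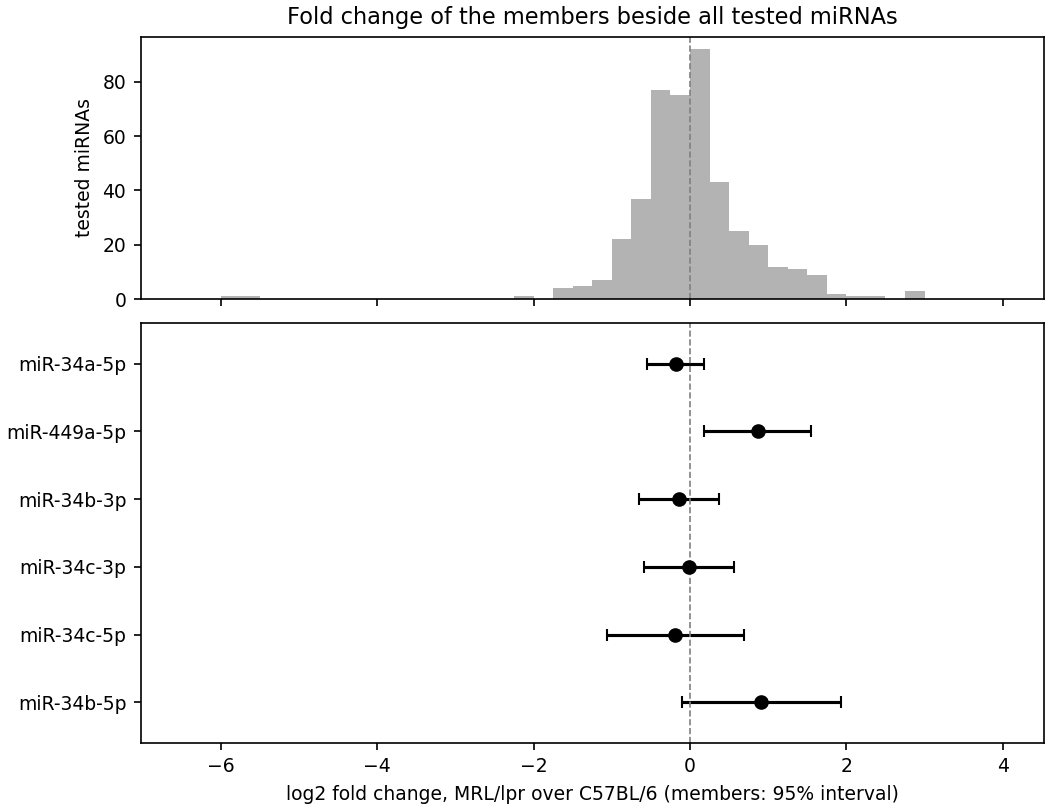
Upper panel, number of tested miRNAs by log2 fold change (MRL/lpr over C57BL/6) over all 451 tested; lower panel, the 6 members with their 95% intervals on the same axis. The interval of miR-449a-5p, 0.18 to 1.55, lies above 0, and those of the other 5 members include 0.

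miR-34a-5p, the p53-linked member, was found at 18711, 13352 and 13986 CPM in MRL/lpr replicates 1, 2 and 3. In C57BL/6 it stood at 17101, 16484 and 18764 CPM. MRL/lpr replicate 1 reached the C57BL/6 range and the other two MRL/lpr libraries lay below every C57BL/6 library. The means were 15349 ± 2928 and 17450 ± 1179 CPM in MRL/lpr and C57BL/6 (SD, n = 3 each). The log2 fold change was -0.19 ± 0.16 (SE; 95% interval -0.55 to 0.18; edgeR adjusted p = 0.564). Counts of 68795 to 132511 per library make counting error small beside this spread. Its minor arm, miR-34a-3p, had 2, 1 and 1 counts in MRL/lpr and 1, 2 and 0 in C57BL/6, and was too scarce to test.

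The hairpins of the miR-34b/c cluster were read mainly from their 3p arms. miR-34b-3p was found at 38.0, 35.7 and 30.8 CPM in MRL/lpr replicates 1, 2 and 3, against 34.2, 36.5 and 44.6 CPM in C57BL/6. The groups overlapped, and the log2 fold change was -0.14 ± 0.23 (SE; 95% interval -0.65 to 0.37; edgeR adjusted p = 0.745). miR-34c-3p stood at 21.5, 16.3 and 16.4 CPM in MRL/lpr, against 18.4, 20.7 and 15.7 CPM in C57BL/6. These ranges also overlapped, with a log2 fold change of -0.017 ± 0.26 (SE; 95% interval -0.59 to 0.56; edgeR adjusted p = 0.971). Its sign changed under 7 of 15 other settings, among them without C57BL/6 replicate 2 (0.11).

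The 5p arms of this cluster were scarcer. That of miR-34b carries the miR-34a seed, and the seed of miR-34c-5p was not checked here. miR-34c-5p had 41, 24 and 20 counts in MRL/lpr and 28, 39 and 24 in C57BL/6, or 4.59 ± 1.24 and 5.24 ± 1.33 CPM (SD, n = 3 each). Its log2 fold change was -0.19 ± 0.39 (SE; 95% interval -1.06 to 0.69; edgeR adjusted p = 0.805). The interval is wide enough to hold a 2-fold decrease, and without C57BL/6 replicate 2 the value was -0.0029. miR-34b-5p had 24, 9 and 14 counts in MRL/lpr and 8, 5 and 10 in C57BL/6, or 2.48 ± 0.834 and 1.33 ± 0.460 CPM. Its groups did not overlap in CPM, as was the case for 28.8% of all tested miRNAs. The lowest MRL/lpr library, at 1.75 CPM, lay just above the highest C57BL/6 library, at 1.64 CPM. By counting error alone (exact Poisson intervals, which do not cover PCR copies), the 9 counts of that MRL/lpr library stretch from 4.12 to 17.1 and the 8 counts of that C57BL/6 library from 3.45 to 15.8. The log2 fold change was 0.91 ± 0.46 (SE; 95% interval -0.10 to 1.93; edgeR adjusted p = 0.279). The low-count filter asked for 1.70 CPM by library size in 3 libraries, which miR-34b-5p reached in 3 of 3 MRL/lpr and 0 of 3 C57BL/6 libraries. It therefore entered the test through the strain in which it was higher.

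Arm balance differed between the hairpins of the family more than between strains. The 5p arm of miR-34a held over 99% of its hairpin's counts in every library. For miR-34b the 5p share was 8.19%, 4.66% and 7.0% in MRL/lpr replicates 1, 2 and 3, against 4.57%, 2.16% and 3.38% in C57BL/6. These shares of counts did not overlap, but the nearest libraries almost touched, and they overlapped once 1 CPM was added to each arm, where 17.8% of hairpins did not. For miR-34c the 5p share was 21.2%, 22.2% and 16.8% in MRL/lpr and 23.7%, 23.2% and 19.2% in C57BL/6, and the groups overlapped. On the log2 scale of 5p to 3p CPM, each plus 1, miR-34b differed by 0.71 ± 0.27 (SE, MRL/lpr minus C57BL/6). That gave an unadjusted p of 0.0252 and an adjusted p of 0.246 (limma over 107 hairpins, of which 2, or 1.87%, passed and 14.0% had an unadjusted p under 0.05). The hairpin was among the 107 only because miR-34b-5p had passed the low-count filter through MRL/lpr, where it was higher, so this p is no support for a difference. With 5 CPM added to each arm in place of 1, the difference was 0.36. miR-34c differed by -0.14 ± 0.24 (limma adjusted p = 0.874). The 3p arm was the more abundant one in 44 of the 107 hairpins.

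**Figure D3:**
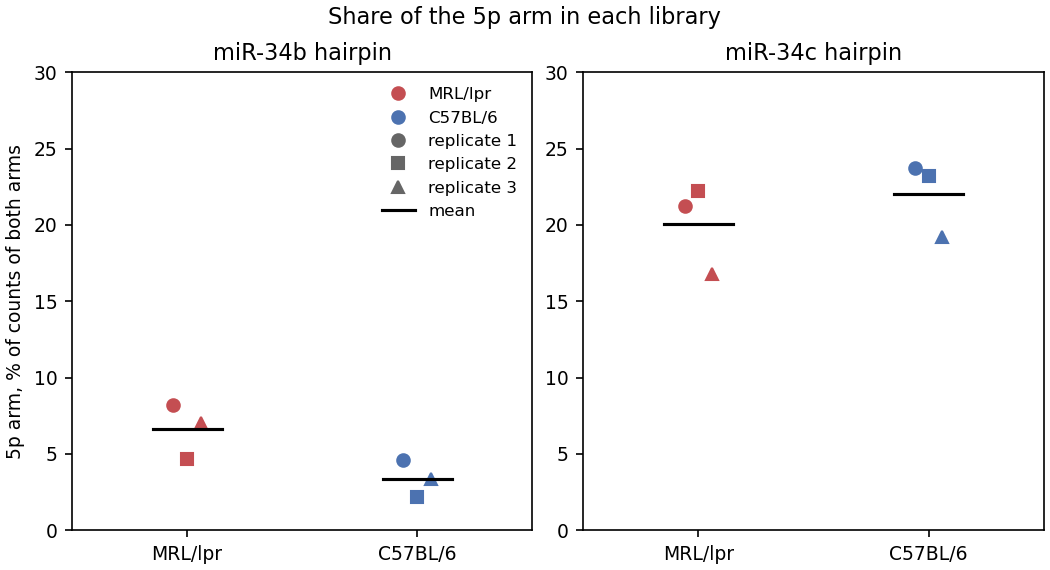
Counts of the 5p arm as a percentage of the counts of both arms of the miR-34b and miR-34c hairpins in each library; MRL/lpr in red left of C57BL/6 in blue, marker shapes for replicate numbers and black lines for means. The miR-34b shares lie at 4.66% to 8.19% in MRL/lpr and 2.16% to 4.57% in C57BL/6, while those of miR-34c overlap.

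miR-449a-5p, from the multiciliated cell locus, had the smallest p of the members. It stood at 57.5, 70.5 and 41.2 CPM in MRL/lpr replicates 1, 2 and 3, from 407, 363 and 249 counts. In C57BL/6 it stood at 24.6, 42.9 and 25.2 CPM, from 120, 267 and 162 counts. The groups overlapped through 1 library, C57BL/6 replicate 2, which lay just above MRL/lpr replicate 3. The means were 56.4 ± 14.6 CPM in MRL/lpr and 30.9 ± 10.4 CPM in C57BL/6 (SD, n = 3 each). The log2 fold change was 0.87 ± 0.31 (SE; 95% interval 0.18 to 1.55; edgeR unadjusted p = 0.0179, adjusted p = 0.132), and the difference did not pass the test.

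Without C57BL/6 replicate 2, the library high in leukocyte miRNAs, miR-449a-5p was higher in MRL/lpr, with a log2 fold change of 1.19 ± 0.25 (SE, edgeR adjusted p = 0.0124). In that fit 54 of 470 miRNAs, 11.5%, passed, and 8.94% were higher. This library held the highest C57BL/6 value of miR-449a-5p, so leaving it out raises the difference by construction, and the part of its leukocyte and epithelial miRNA content in the result was not tested. In that fit 5 of the 7 listed leukocyte and myeloid miRNAs were also called higher, as given above. Higher was the commoner direction there, with 42 of the 54 called miRNAs. With each of the other 5 libraries left out, the log2 fold change ran from 0.65 to 1.07 and did not pass. The second mature name of the locus in the table, miR-449c-5p, which has the same seed, had 0 counts in all 3 MRL/lpr libraries and 0, 1 and 0 in C57BL/6. A count of 0 was taken to allow up to 3 counts, or 0.424 to 0.614 CPM in these libraries, for counting error only.

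**Figure D4:**
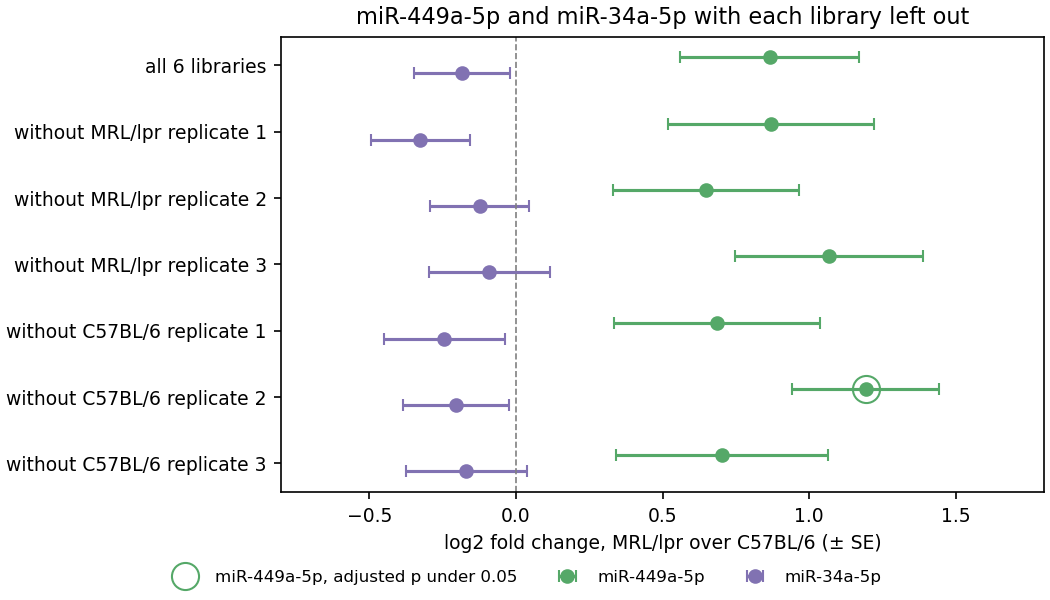
Log2 fold change (MRL/lpr over C57BL/6, bars are SE) of miR-449a-5p in green and miR-34a-5p in purple, with all 6 libraries and with each library left out in turn; a ring marks an adjusted p under 0.05. miR-449a-5p lies between 0.65 and 1.19 and is ringed only without C57BL/6 replicate 2, and miR-34a-5p lies between -0.33 and -0.092.

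Ratios within a library set the loci against each other. Ratios of counts do not depend on scaling between libraries; the log2 ratios tested are of CPM, each plus 1, and move slightly with it. For the p53-linked locus against miR-34b/c, there were 3232, 2866 and 4224 miR-34a-5p counts per miR-34c-5p count in MRL/lpr replicates 1, 2 and 3, against 2985, 2631 and 5019 in C57BL/6. The log2 ratio differed by -0.038 (MRL/lpr minus C57BL/6; exact permutation test, two-sided, p = 0.9; 3 against 3 libraries cannot give less than 0.1), by -0.011 with library-size CPM and by -0.20 without C57BL/6 replicate 2. For miR-34a-5p per miR-34b-3p the counts were 493, 374 and 454 in MRL/lpr and 501, 452 and 421 in C57BL/6. This log2 ratio differed by -0.066 (exact permutation p = 0.6), and both ratios overlapped between strains.

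Ratios with miR-449a-5p did not overlap between strains. This miRNA had 3.07, 5.28 and 2.95 counts per 1000 counts of miR-34a-5p in MRL/lpr replicates 1, 2 and 3, against 1.44, 2.60 and 1.34 in C57BL/6. All 3 MRL/lpr libraries lay above all 3 C57BL/6 libraries. The log2 ratio of miR-34a-5p to miR-449a-5p was 8.08 ± 0.463 in MRL/lpr and 9.14 ± 0.511 in C57BL/6 (SD, n = 3 each), a difference of -1.06 (exact permutation p = 0.1, the smallest possible). Of 450 other tested miRNAs, 20.2% likewise had ratios to miR-34a-5p that did not overlap.

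Set against the other ciliary locus, miR-449a-5p had 1.51, 1.97 and 1.34 counts per count of miR-34b-3p in MRL/lpr, against 0.719, 1.18 and 0.566 in C57BL/6. This ratio too did not overlap, which held for 20.9% of all miRNAs set against miR-34b-3p. The log2 ratio of miR-449a-5p to miR-34b-3p was higher by 0.99 in MRL/lpr (exact permutation p = 0.1). The ratio to miR-34c-5p was higher by 1.02 (exact permutation p = 0.1, with 18.7% of all miRNAs not overlapping against miR-34c-5p). Over the 5 ratios the adjusted p was 0.167 for the 3 that involve miR-449a-5p and 0.75 and 0.9 for the others, so none passed, as this design allows none to pass. The 3 share the values of miR-449a-5p and are not separate evidence.

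**Figure D5:**
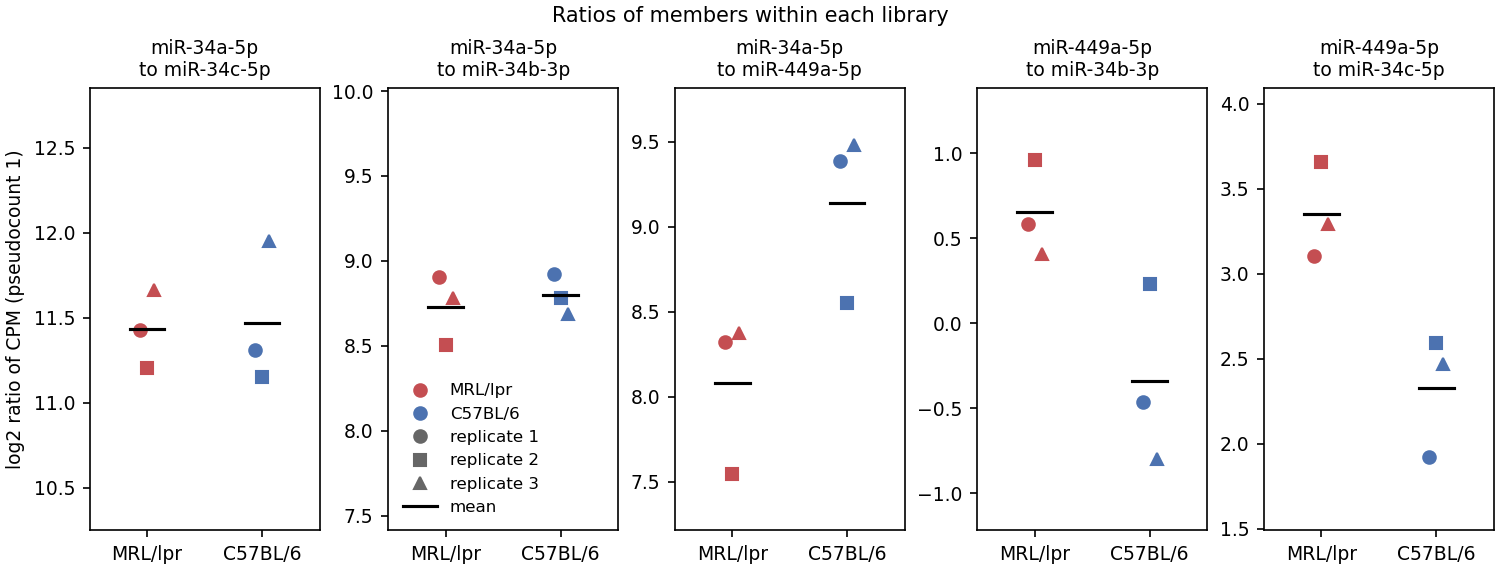
Log2 ratio of CPM (after adding 1) between pairs of members in each library, MRL/lpr in red left of C57BL/6 in blue, with marker shapes for replicate numbers and black lines for means; each axis spans the same number of log2 units. The groups overlap for miR-34a-5p against miR-34c-5p and miR-34b-3p, and do not overlap for the 3 ratios with miR-449a-5p.

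Other miRNAs linked to p53 were listed for comparison: miR-192, miR-194, miR-215, miR-107, miR-200c and miR-22, described as p53-responsive in human cells, and miR-15a, miR-16, miR-143 and miR-145, of which p53 promotes the processing or expression. With miR-34a-3p, the table held 12 such names, of which 10 were tested, and edgeR called 0 of them higher or lower, beside 6.21% of all tested miRNAs. At an unadjusted p under 0.05 there were 0 of 10, beside 20.8%, and DESeq2 and limma-voom also called 0, beside 8.39% and 4.66%. A count of 0 among 10 is near the background of called miRNAs and is no result about the list. The lowest log2 fold change was -0.46 (miR-145a-3p) and the highest 0.46 (miR-107-3p), with a median of 0.11 (-0.044 without C57BL/6 replicate 2, where 0 passed). The 2 most abundant by the mean of both strains were miR-16-5p, at 31534 ± 4453 CPM in MRL/lpr and 32438 ± 2399 CPM in C57BL/6, and the tubular miR-192-5p, at 30421 ± 2972 CPM in MRL/lpr and 28243 ± 9843 CPM in C57BL/6 (SD, n = 3 each).

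A list linked to cilia held miR-449c and the miR-129 family, whose 3p arms also repress Cp110 and are known for primary cilium assembly. Counts were given for 4 of its names, of which 3 were tested and 1 passed, beside 6.21% of all tested miRNAs. miR-129-2-3p rose to 73, 47 and 48 counts in MRL/lpr, against 5, 3 and 13 counts in C57BL/6 (log2 fold change 2.92 ± 0.50, SE, with an edgeR adjusted p of 0.00793). It met the low-count filter in 3 of 3 MRL/lpr and 1 of 3 C57BL/6 libraries, and so entered the test through the strain in which it was higher. The p of this fit is therefore no support for a difference. miR-129-2-3p also passed with no low-count filter (log2 fold change 2.89, edgeR adjusted p = 4.15e-07) and in DESeq2 (adjusted p = 3.13e-05). In these settings 64 of 1395 and 51 of 608 miRNAs were called. Both rest on the same 5, 3 and 13 counts in C57BL/6. Its log2 fold change was 3.56 without C57BL/6 replicate 3, and 3.03 without MRL/lpr replicate 3, where it no longer passed (edgeR adjusted p = 0.0643). With a minimum of 10 CPM miR-129-2-3p was not tested. miR-129-1-3p, from the other miR-129 locus, averaged 9.73 ± 2.51 CPM in MRL/lpr and 4.66 ± 1.65 CPM in C57BL/6 (SD, n = 3 each; edgeR adjusted p = 0.134). miR-129-5p, which both loci make, averaged 16.9 ± 3.64 CPM in MRL/lpr and 16.1 ± 5.56 CPM in C57BL/6 (edgeR adjusted p = 0.922), with a log2 fold change of 0.078 that was -0.17 without C57BL/6 replicate 2. All 3 were lowest in replicate 2 among the C57BL/6 libraries, the reverse of miR-449a-5p, which was highest there.

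By Pearson correlation of log2(CPM + 1) over the 6 libraries, the miRNAs most like miR-34a-5p among 274 named ones with a mean of 10 CPM or more were miR-27b-3p (r = 0.84), miR-450a-5p (r = 0.82) and miR-145a-3p (r = 0.81). Those most like miR-34b-3p were miR-199b-3p (r = 0.95), miR-1843a-3p (r = 0.90) and miR-872-3p (r = 0.76). mmu-miR-199b-3p had 2348 CPM in C57BL/6 replicate 3 and at most 37.6 CPM elsewhere, so its correlation rests on 1 library. In that library mmu-miR-199a-3p was low at 37.7 CPM. How reads were shared between these names is not stated, so neither value need be the level of a distinct miRNA. These values are descriptions: they share libraries and scaling, and the highest of 274 correlations over 6 points is high by selection.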

How the data were processed

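Small RNA of kidney was sequenced on a DNA nanoball instrument after adapter ligation, PCR and gel size selection, per the labels' protocols; the sources used here do not mention molecular identifiers. The authors deposited 1 table of raw counts, whole numbers for each mature miRNA (1190 miRBase names, 352 predicted). Bowtie2, DESeq2 and the build GRCm38.p6 appear in the submitters' processing notes without version or role. Columns were matched to samples by group letters, age and replicate number.

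The members and lists were chosen with earlier results of these data known. All miRNAs were fitted in R 4.3.3 with edgeR 4.0.16: filterByExpr by group (minimum count 10, total 15), TMM scaling, robust quasi-likelihood test for strain, Benjamini-Hochberg adjustment over 451 miRNAs, threshold 0.05. Standard errors derive from the fitted coefficient and its F statistic. Arm ratios were tested with limma 3.58.1, and locus ratios by exact permutation in scipy 1.17.1; 4 of the 5 locus ratios were added after the data were seen. The tests were tried on simulated counts. The named miRNAs were the members, other arms of their hairpins, up to 4 called or else the 2 most abundant of each list (miR-122-5p, miR-142a-3p, miR-146a-5p and the uncalled p53 and miR-129 names were chosen after their values were seen), and the 3 most similar to miR-34a-5p and to the most abundant miR-34b/c arm. Alternatives were other scalings and filters, DESeq2 1.42.0, limma-voom, other pseudocounts, a replicate block and each library left out; counts of called list members without C57BL/6 replicate 2 were added after the data were seen.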

Additional observations from a re-analysis of the deposited data

How the results depend on the processing

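The count of 28 miRNAs past the threshold was 64 with no low-count filter, 51 with DESeq2 and 13 with the replicate number as a block, and 5 to 54 with 1 library left out (5 without MRL/lpr replicate 3, 11 and 15 without C57BL/6 replicates 3 and 1, 54 without C57BL/6 replicate 2). The number of members called was 0 in every setting except 1, miR-449a-5p, without C57BL/6 replicate 2. The log2 fold change of miR-449a-5p was 0.65 to 1.19 with 1 library left out and 0.84 to 0.99 in the other settings; its adjusted p was 0.0124 without C57BL/6 replicate 2 and 0.0640 to 0.355 elsewhere. miR-34a-5p and miR-34b-5p kept their signs in every setting that tested them, but miR-34a-5p stood at -0.026 with library-size scaling; miR-34b-5p was not tested without MRL/lpr replicate 1 or with a minimum of 10 CPM, nor miR-34c-5p with that minimum. Signs turned, with the cause not tested, for miR-34b-3p (0.0080 with library-size scaling) and miR-34c-3p (0.0094 with RLE, 0.14 with library-size scaling, 0.044 with a minimum of 10 CPM and 0.013 with DESeq2; -0.15 to 0.11 with 1 library left out). They also turned for miR-34c-5p (-0.42 to 0.035 with 1 library left out). The log2 ratio of miR-34a-5p to miR-34c-5p ran from -0.20 to 0.20, and that to miR-34b-3p from -0.15 to 0.046, with 1 library left out. Ratios with miR-449a-5p and the arm ratios kept their signs in all settings run, and neither arm ratio passed in any; that of miR-34b was 0.36 with a pseudocount of 5 CPM. Without C57BL/6 replicate 2, the C57BL/6 library highest in them, the leukocyte and myeloid miRNAs called were 5 in place of 1. The counts called in the other lists were the same. DESeq2 called 3 of the leukocyte and myeloid miRNAs.

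Replicate numbers gave no sign of pairing the libraries: deviations from the group means of same-numbered libraries correlated at -0.37, 0.034 and -0.37 over all tested miRNAs. Differently numbered libraries gave -0.18 to 0.39. Deviations within a group cancel out, so these correlations constrain one another and cannot settle whether the numbers pair libraries. With the replicate block, miR-449a-5p had a log2 fold change of 0.88 (edgeR adjusted p = 0.115) and 0 members passed. Depth limits mainly miR-34b-5p, with 5 to 24 counts per library, and miR-34c-5p, with 20 to 41.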

Other observations

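Among the members themselves, log2(CPM + 1) over the 6 libraries moved most closely together for the arms of the miR-34c hairpin (Pearson r = 0.85), while the arms of miR-34b gave r = -0.13. miR-34a-5p had r = 0.69 with miR-34b-3p and r = -0.50 with miR-449a-5p. miR-34b-3p and miR-34c-3p, made from hairpins 451 bases apart on one primary transcript, had r = -0.041. These 3p arms varied little, at 30.8 to 44.6 CPM for miR-34b-3p and 15.7 to 21.5 CPM for miR-34c-3p. By counting error alone, the 84 counts of miR-34c-3p in MRL/lpr replicate 2 stretch from 67.0 to 104. Their r can therefore not decide whether the hairpins vary together. All these correlations are descriptions over 6 points that share libraries and scaling, and the scarce 5p arms carry wide counting error.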
